A study of Mus musculus with 5 samples.

Results

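The synaptic vesicle and release machinery genes are the genes whose products store transmitter in vesicles, bring the vesicles to the active zone and fuse them with the plasma membrane. They were taken by symbol from the protein-coding genes of GENCODE M21: synaptotagmins (Syt), syntaxins (Stx), VAMPs (Vamp), complexins (Cplx), RIMs (Rims), synapsins (Syn) and syntaxin-binding proteins (Stxbp) followed by a number, with Rab3a to Rab3d, Sv2a to Sv2c, Snap23, Snap25, Snap29, Snap47, Snap91, Unc13a to Unc13d, Bsn, Pclo, Syp and Nsf. This gave 77 of 21951 genes. A region of the deposited table was assigned to a gene when it overlapped the gene body or lay within 10 kb of it, and 53 of the 8038 regions met this rule for 35 of the 77 genes. No region was assigned to more than 1 member.

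CUT&Tag, in which an antibody directs a transposase to tag DNA next to the bound protein, was performed on retinas of wild-type (WT) mouse embryos at E16.5, with 4 retinas pooled. A rabbit anti-Pou4f1 antibody (n = 2) was compared with rabbit IgG (n = 2), and the library made with rabbit anti-H3K9AC (n = 1) was not analysed here. Pou4f1 is a POU-domain transcription factor of retinal ganglion cells (RGCs), which are only part of the whole retina that was used. Of the columns that hold the control, 1 is named IgG and 1 Negative8. Both were taken as IgG libraries because rabbit IgG is the negative control that the study describes, although the latter name does not say so. The study calls the replicates independent, but neither it nor the labels say whether they came from separate pools of embryos. The p-values therefore measure the spread between these libraries, which may be technical.

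Neurons release transmitter when an action potential lets calcium into the terminal. Vesicles carry a VAMP, which zippers with syntaxin and SNAP-25 on the plasma membrane into the SNARE complex. Unc13 proteins help to assemble this complex, complexins hold it ready, synaptotagmins trigger fusion on calcium, and Nsf takes it apart afterwards. RIMs, Bassoon and Piccolo organise the active zone where this happens, and synapsins and Rab3 proteins sit on the vesicles. RGCs are glutamatergic neurons that use this machinery in their axon terminals in the brain.

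The sequences shown come from the member regions that held a POU motif or an RE1 element near their centre, and the region with the highest signal of all members. The POU motif was searched as ATNAATNAT on both strands, where N is any base, in the central 200 bp of each region, and RE1, the element bound by the neuronal gene repressor REST, by its consensus. Matches of the POU motif may overlap each other. Sequences are from GRCm38.p6, the assembly of mm10, on the strand of the gene, and the windows overlap no annotated exon. Capitals mark the POU motif in Syt1 and Syt7, at chr10:108767541-108767740 (minus strand), chr19:10385392-10385591 and chr19:10409095-10409294 (plus strand), and the RE1 element in Cplx2, at chr13:54371708-54371907 (plus strand). The window of Vamp4, at chr1:162593717-162593916 (plus strand), held neither and has no capitals.
Syt1 intron: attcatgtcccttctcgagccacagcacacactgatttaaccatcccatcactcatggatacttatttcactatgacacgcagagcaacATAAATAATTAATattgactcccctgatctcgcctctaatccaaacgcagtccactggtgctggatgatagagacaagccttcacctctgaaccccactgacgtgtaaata
Syt7 upstream: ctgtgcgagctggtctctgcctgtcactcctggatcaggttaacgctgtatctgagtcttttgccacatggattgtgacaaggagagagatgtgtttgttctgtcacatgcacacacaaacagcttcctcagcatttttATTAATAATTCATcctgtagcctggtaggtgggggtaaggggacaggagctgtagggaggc
Syt7 intron: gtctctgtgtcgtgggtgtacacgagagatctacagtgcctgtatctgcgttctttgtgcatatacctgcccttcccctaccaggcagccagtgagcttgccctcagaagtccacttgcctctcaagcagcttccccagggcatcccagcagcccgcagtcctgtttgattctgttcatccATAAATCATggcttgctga
Cplx2 start: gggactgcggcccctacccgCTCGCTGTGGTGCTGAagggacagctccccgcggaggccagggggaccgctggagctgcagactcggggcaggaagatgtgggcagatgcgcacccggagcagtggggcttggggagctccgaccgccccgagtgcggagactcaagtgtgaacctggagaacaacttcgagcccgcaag
Vamp4 intron: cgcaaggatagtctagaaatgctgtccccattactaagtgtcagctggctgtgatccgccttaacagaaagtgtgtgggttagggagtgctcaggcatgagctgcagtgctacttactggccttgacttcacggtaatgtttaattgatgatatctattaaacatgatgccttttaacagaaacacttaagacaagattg

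In the Syt1 window the motif occurred as 2 overlapping matches, from base 90 to 98 and from base 94 to 102, and the upstream window of Syt7 likewise held 2, from base 140 to 148 and from 144 to 152. The other Syt7 window held 1, from base 182 to 190. These 3 were the only member regions with the motif at the centre (5.66% of 53), against 8.10% of the 8028 regions on chromosomes. All 3 lay away from a start, where 3 of 21 member regions held it (14.3%), beside 20.2% of the 2881 such regions in the table. In windows 2 kb to each side of the member regions the motif was found in 5 of 106 (4.72%), beside 4.21% in such windows of all regions. Over the whole length of the regions 15 of 53 held it (28.3%), beside 21.7% in the table. The shares are descriptions of a few regions, and regions away from a start differ in base composition from those at a start, with a median GC content of 48.5% and 60.9% among the members.

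The cAMP response element, with the letters TGACGTCA, was found at the centre of 1 member region, that of Syn1 (0.959% of all regions). Over the whole length of the regions 3 held it, those of Syn1, Stxbp3 and Vamp3 (5.66%, beside 3.84% of all regions). RefSeq promoters of GRCm38.p6, which run from 250 bases before a start to 50 after it, were matched by symbol for 61 of the 77 members. The element occurred in 2 of them, Syn1 and Stxbp3, and in 2.03% of all 27025 symbols, while the POU motif occurred in 0 of the 61 (4.35% of all symbols). Both promoters are shown because each lies at a Pou4f1 region of its gene. The first 160 bases of each are given, at chrX:20921009-20921168 and chr3:108840593-108840752, both on the minus strand, with the element in capitals.
Syn1 promoter: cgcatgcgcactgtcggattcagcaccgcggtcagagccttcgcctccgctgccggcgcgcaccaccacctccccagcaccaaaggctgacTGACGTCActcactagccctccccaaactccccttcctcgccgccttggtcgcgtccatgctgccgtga
Stxbp3 promoter: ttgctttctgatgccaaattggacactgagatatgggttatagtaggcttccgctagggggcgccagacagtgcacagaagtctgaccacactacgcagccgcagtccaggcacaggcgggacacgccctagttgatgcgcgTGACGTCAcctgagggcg

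A region was found for 35 of the 77 release machinery genes (45.5%), against 34.9% of all protein-coding genes. The members are long genes, with a median body of 44.3 kb against 17.4 kb, and a longer gene has more room for a region. Members with a region had a median body of 60.5 kb and those without of 29.04 kb. Within classes of gene length the shares lay on both sides of those of all genes: 5 of the 20 members up to 20 kb, beside 26.2%, 47.8% of the 23 from 20 to 50 kb, beside 38.6%, 33.3% of the 12 from 50 to 100 kb, beside 46.5%, and 68.2% of the 22 above 100 kb, beside 56.9%. With overlap of the gene body alone the share was 41.6% against 27.8%, and with regions above the median Pou4f1 signal alone 19.5% against 17.5%. Sodium, calcium and potassium channel genes (132), whose median body was 44.0 kb, had a region in 43.9%, and genes of neurotransmitter receptors (71) in 38.0%.

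The families differed in how many of their genes had a region. Syntaxin-binding proteins stood at 6 of 7 genes, VAMPs at 5 of 7, SNAP proteins at 3 of 5, synapsins at 2 of 3, and Bassoon and Piccolo at 2 of 2. Complexins, RIMs and Rab3 proteins each had 2 of 4. The largest families had fewer, with 6 of 17 synaptotagmins and 3 of 15 syntaxins, and Unc13 had 1 of 4 and Sv2 1 of 3. Neither Syp nor Nsf had a region. These counts are small and no test was made of their differences. They stand beside 34.9% of all protein-coding genes, and the families were not matched for gene length.

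**Figure D1:**
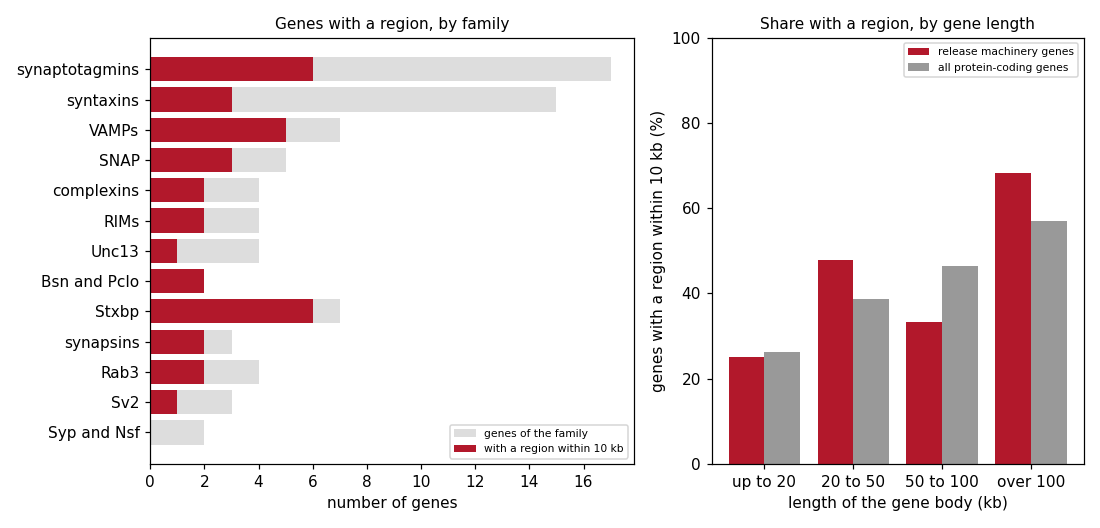
Left, number of genes in each family (grey) and number with a region within 10 kb (red). Right, share of genes with a region (%) by length of the gene body (kb) for the 77 release machinery genes (red) and all 21951 protein-coding genes (grey). Stxbp genes nearly all had a region, syntaxins mostly had none, and the red bars are above the grey in the classes of 20 to 50 kb and over 100 kb and below them in the other classes.

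Of the 20 genes of the core release apparatus, 12 had a region (60%) and 8 had none within 10 kb. This stands beside 45.5% of the members and 34.9% of all protein-coding genes, without matching for gene length. Those without included Snap25 and Stx1a, which encode plasma membrane SNAREs of fast release, with Syn2, Rims2, Syp (synaptophysin), Sv2a and Nsf. The nearest regions lay 12.3 kb away for Nsf, 13.3 kb for Stx1a, 18.5 kb for Syn2 and 19.5 kb for Sv2a. For Syp, Rims2 and Snap25 the distance was 60.7, 65.3 and 108 kb. Vamp2, the vesicle SNARE of fast release, and Bsn were counted through 1 region each. Each of these regions lies beyond the end of the gene at the start of another gene. The other 10 core genes had a region that overlaps the gene, as did 27.8% of all protein-coding genes. Absence from the table means that the authors listed no region there, and the signal outside the listed regions was not analysed here.

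Pou4f1 signal at the 53 member regions was like that of the table as a whole. Its median was 179 in replicate 1 and 172 in replicate 2, while the column named IgG had 5.08 and the Negative8 column 6.18, beside 184, 155, 4.78 and 7.96 over all 8038 regions. The signal is a value per region that the authors made from read coverage, and the number of reads behind it is unknown. The 2 Pou4f1 values exceeded the 2 IgG values in 52 of the 53 (98.1%), beside 96.5% of all regions. The authors called the regions as Pou4f1 peaks with IgG as the negative control, which is the contrast compared here. The direction of the difference was therefore largely fixed beforehand, and part of any excess over IgG comes from that choice. For the same reason the limma calls below are no independent evidence of binding. In 13 of the 53 both IgG libraries read 0 (24.5%), beside 22.8% of all regions.

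**Figure D2:**
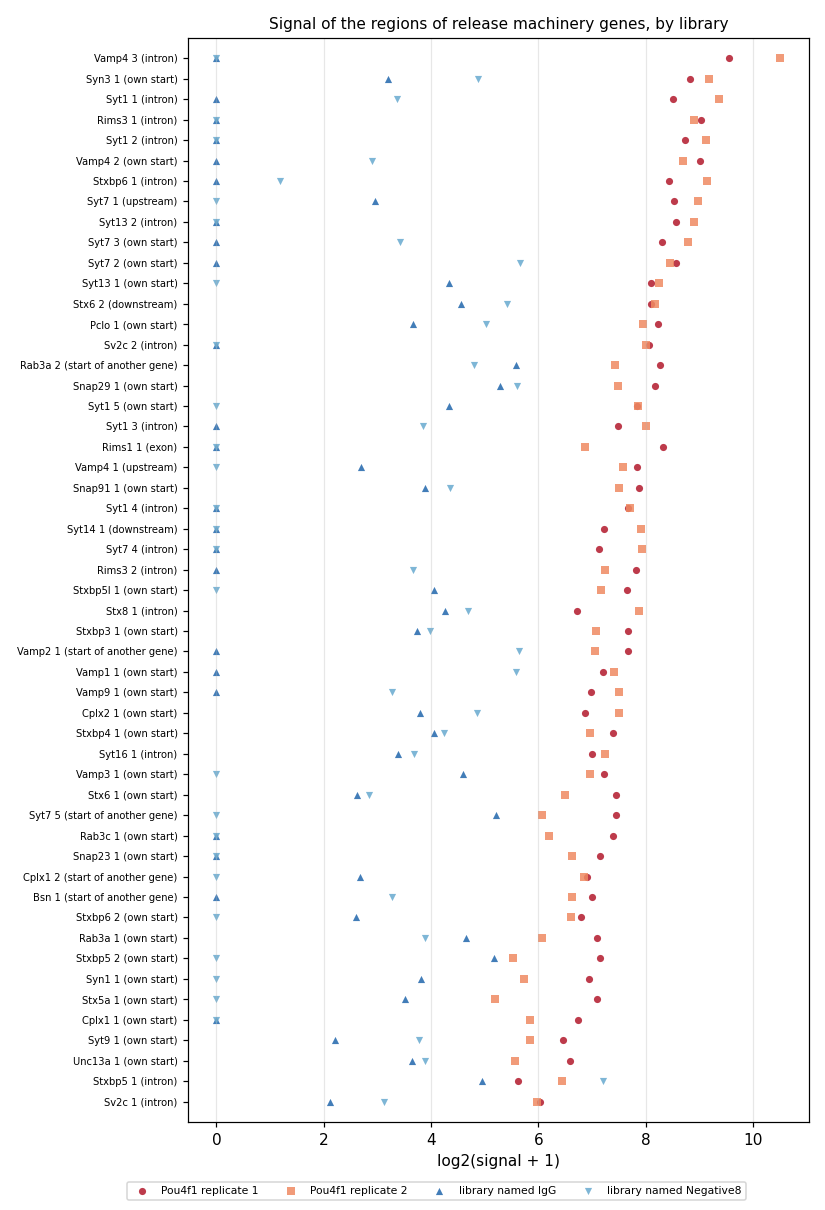
Signal of 52 of the 53 regions of release machinery genes on a log2(signal + 1) axis, 1 row per region, ordered by mean Pou4f1 signal. Red circles and orange squares are the Pou4f1 replicates, dark and light blue triangles the columns named IgG and Negative8. The Pou4f1 points lie to the right of both IgG points in 51 rows, the exception being the intronic region of Stxbp5.

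Tested with limma on log2(signal + 1) over all 8038 regions, 41 of the 53 member regions were higher in Pou4f1 (Benjamini-Hochberg adjusted p under 0.05), 77.4% against 64.8% of all regions. None was lower with limma (0 of 53, and 0 at an unadjusted p under 0.05), and 18 of all regions were lower (0.224%). The median log2 difference, Pou4f1 minus IgG, was 5.40 among the members and 5.22 in the table, and single differences are given with ± standard error. The call followed the IgG values closely. Calls were made for all 13 member regions at 0 in both IgG libraries, for 12 of the 23 where 1 library read 0, and for 16 of the 17 with signal in both, and over the table these shares were 99.7%, 39.4% and 74.1%. Without Pou4f1 replicate 1 the count was 17 (32.1%, beside 29.4% of all regions) and without replicate 2 it was 18 (34.0%, beside 30.9%), all of them among the 41. The spread then comes from the IgG pair alone and is 0 where both are listed at 0. With the column totals as library sizes 13 were called (24.5%, beside 22.7%) and 14 changed sign, namely both regions of Rab3a and 1 each of Snap29, Unc13a, Stx8, Cplx2, Stxbp4, Stx6, Syt9, Stxbp3, Snap91, Sv2c, Syt16 and Pclo, while the median of all regions fell by 2.48. These totals were taken over the same regions, chosen as Pou4f1 peaks, so this setting removes an excess that the regions share. Without the library named IgG 52 were called (98.1%, beside 94.4%) and without that named Negative8 51 (96.2%, beside 95.9%). The 17 calls that held without each library in turn include those of Syt1 (2 regions), Syt7, Syt13, Syt14, Syt16, Vamp4, Rims1, Rims3, Stxbp3, Stxbp4, Cplx1, Rab3c, Snap23, Stx6 and Sv2c, and only 4 of the 17 had signal in IgG, so that for the other 13 these refits show little.

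**Figure D3:**
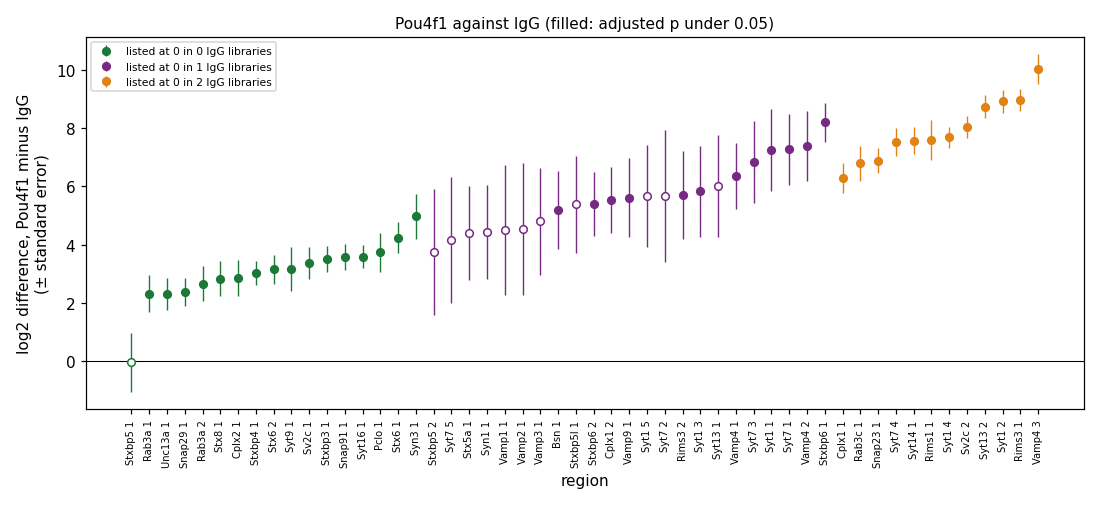
Log2 difference of Pou4f1 minus IgG (± standard error from limma, n = 2 and 2) for 52 of the 53 regions, coloured by the number of IgG libraries listed at 0 and filled where the adjusted p was under 0.05. Regions at 0 in 1 IgG library have the longest error bars and hold 11 of the 12 open points, and the remaining open point is the Stxbp5 intronic region at -0.04.

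Of the member regions 27 lay at a start of their own gene, 5 at the start of another gene and, of those away from a start, 16 in introns, 1 in a coding exon, 2 upstream and 2 downstream. Together 32 had their midpoint within 1 kb of an annotated start (60.4%), beside 64.0% of all regions. The replicates differed with location. At a start replicate 2 exceeded replicate 1 in 7 of 32 regions, with a median ratio of 0.729, and away from a start in 14 of 21, with a median ratio of 1.26. The table as a whole had ratios of 0.701 and 1.16. Away from a start 20 of 21 member regions were higher in Pou4f1 (95.2%, beside 69.6% of all such regions), and at a start 21 of 32 (65.6%, beside 62.1%). Of the 9 member regions in the top 10% of the table by mean Pou4f1 signal, 7 lay away from a start, beside 61.4% of the 804 such regions in the table.

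**Figure D4:**
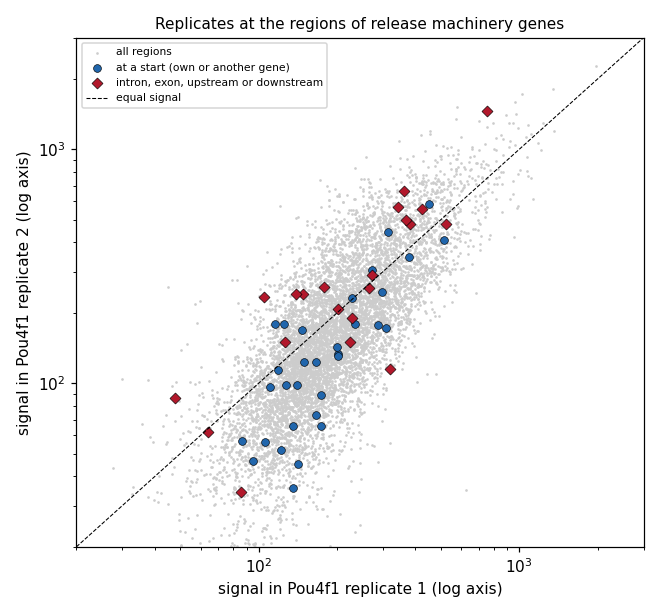
Signal in Pou4f1 replicate 1 against replicate 2, both on log axes, for all regions (grey) and for the 53 member regions, at a start (blue circles) or elsewhere (red diamonds). The dashed line marks equal signal. Of the blue circles 7 of 32 lie above the line and of the red diamonds 14 of 21, and 94 grey points with a value below 20 or above 3000 fall outside the axes.

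The synaptotagmins, some of them calcium sensors of fusion, held 15 of the 53 regions, more than any other family. They are also the largest family, with 17 genes. Of the 15 regions 11 were higher in Pou4f1 (73.3%), beside 77.4% of the member regions and 64.8% of all regions. Syt1, which encodes the sensor of fast synchronous release, had 5 regions over a body of 513.3 kb on the minus strand of chromosome 10, and Syt7, the sensor of slower, asynchronous release, had 5 over 64.1 kb on chromosome 19. Only 66 of all protein-coding genes had 5 or more (0.301%). Their Pou4f1 signal was not at the first start alone. At the start of Syt1 the Pou4f1 libraries had 228 and 231 and the IgG libraries 19.2 and 0 (adjusted p = 0.0598 by limma).

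In what follows the values of Pou4f1 replicates 1 and 2 are set against those of the columns named IgG and Negative8, in that order. Intronic regions of Syt1 reached higher values than its start. The one that holds the POU motif, 243.3 kb from the start, had 424 and 554 in Pou4f1 and read 0 in both IgG libraries (adjusted p = 0.00222 by limma). Another, 319.9 kb from the start and overlapping 163 bp of coding sequence, had 362 and 661 against 0 and 9.26 (adjusted p = 0.0273). Both were among the 5 member regions of highest mean signal and both were higher in replicate 2 than in replicate 1. The regions at 178.8 and 154.9 kb were weaker. They had 179 and 258 against 0 and 13.5 (adjusted p = 0.0483 by limma) and 202 and 208 against 0 and 0 (adjusted p = 0.00222). The groups did not overlap in any of the 5, as in 96.5% of all regions. The call at 319.9 kb and that at 178.8 kb were lost without Pou4f1 replicate 1 (0.270 and 0.329) or replicate 2 (0.282 and 0.321), and over all alternatives their adjusted p reached from 1.62e-32 to 0.411 and from 1.93e-25 to 0.555.

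At Syt7 the strongest signal lay 3.1 kb before the gene, in the region with the overlapping POU matches shown above. The signal was 367 and 499.6 in Pou4f1 against 6.72 and 0 (7.27 ± 1.23 log2 units, adjusted p = 0.0204 by limma). At the first start the region had a similar level, 379 and 348, against 0 and 49.7, and did not pass (adjusted p = 0.0932). Its replicates were nearly equal and the IgG libraries were far apart. A later start of Syt7, 15.0 kb into the gene, had 315 and 444 against 0 and 9.76 (adjusted p = 0.0304), and the intronic region with the POU motif, 20.1 kb into the gene, had 139 and 242 against 0 and 0 (adjusted p = 0.0025). The fifth, with 174 and 65.99 against 36.0 and 0 (adjusted p = 0.151), lies 3.6 kb past the end of Syt7 and 468 bp from the start of Lrrc10b. It was the only one of the 5 that was much higher in replicate 1. The calls at the upstream region and at the later start were lost without Pou4f1 replicate 1 (0.248 and 0.290) or replicate 2 (0.252 and 0.289), and over all alternatives their adjusted p reached from 2.31e-31 to 0.425 and from 3.75e-30 to 0.457.

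The other synaptotagmins with a region were Syt9, a further calcium sensor, and Syt13, Syt14 and Syt16, which do not bind calcium. Syt13 had 272 and 304 against 19.2 and 0 at its start (adjusted p = 0.0542 by limma) and 379.9 and 479 against 0 and 0 in an intron 5.9 kb into the gene (adjusted p = 0.00222). As at Syt1, the intronic region was the stronger. The intronic region of Syt16 had 126 and 149.9 against 9.47 and 11.8 (adjusted p = 0.00822), and a region 8.7 kb past the end of Syt14 had 148 and 240.5 against 0 and 0 (adjusted p = 0.00231). The start of Syt9 was among the weakest, with 86.5 and 56.5 against 3.62 and 12.7 (adjusted p = 0.0395). The remaining 11 synaptotagmins, Syt2, Syt3, Syt4, Syt5, Syt6, Syt8, Syt10, Syt11, Syt12, Syt15 and Syt17, had no region, although Syt2, like Syt1, is a sensor of fast release.

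**Figure D5:**
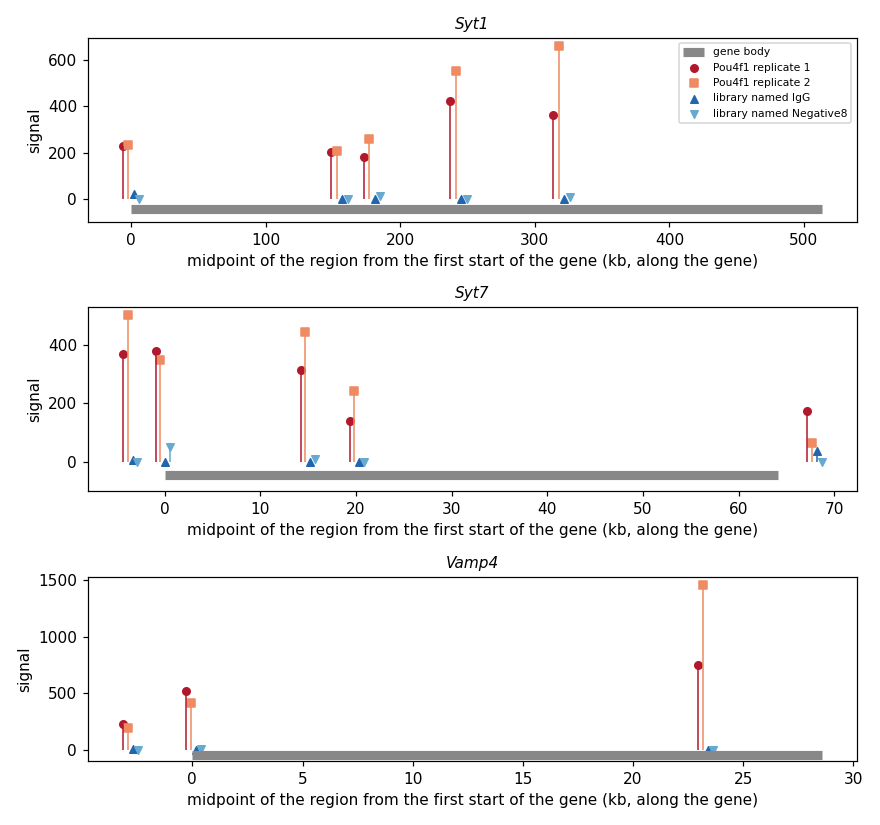
Signal in each library at the regions of Syt1, Syt7 and Vamp4, the 3 members with 3 or more regions, by distance of the midpoint of the region from the first start of the gene (kb, in the direction of the gene). Points of 1 region are set slightly apart, and the grey bar is the gene body. The intronic regions carry the highest Pou4f1 signal at Syt1 and Vamp4, up to 1455 at Vamp4, and the upstream region at Syt7.

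The strongest region of all members belonged to a SNARE and lay in an intron of Vamp4, whose product is a VAMP of the trans-Golgi network and endosomes, on chromosome 1 from 162593543 to 162594092. Its signal reached 752 in replicate 1 of Pou4f1 and 1455 in replicate 2, and it read 0 in both IgG libraries (adjusted p = 0.00222 by limma). By mean Pou4f1 signal it stood at percentile 99.8 of the table. Replicate 2 was 1.94 times replicate 1 here. At the start of Vamp4 the order of the replicates was the reverse, with 515 and 411 against 0 and 6.49 (adjusted p = 0.019), and 2.3 kb before the gene the signal was 229 and 191 against 5.51 and 0 (adjusted p = 0.0226). These 2 calls were lost without Pou4f1 replicate 1 (0.253 and 0.269) or replicate 2 (0.235 and 0.251), and over all alternatives their adjusted p reached from 5.76e-32 to 0.347 and from 3.47e-25 to 0.492.

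The synaptobrevins proper had less. Vamp1 had 147 and 169 against 0 and 46.9 at its start (adjusted p = 0.138 by limma). The region counted for Vamp2, 2327 bp past its end and 5 bp from the start of the clock gene Per1, had 202 and 131 against 0 and 48.7 (adjusted p = 0.14). In both the Pou4f1 libraries lay above the IgG libraries, as in 96.5% of all regions, and the IgG libraries were far apart. Vamp3 (cellubrevin) had 149 and 123 against 23.1 and 0 (adjusted p = 0.0881), and Vamp9 had 125 and 180 against 0 and 8.64 (adjusted p = 0.04), both at their starts. Vamp5 and Vamp8 had no region.

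Of the 15 syntaxins, the 3 with a region, Stx5a, Stx6 and Stx8, act in the Golgi and endosomes. Stx5a had 136 and 35.5 against 10.4 and 0 at its start (adjusted p = 0.0811 by limma), the lowest ratio of replicate 2 to replicate 1 among the members (0.262). Stx8 was the opposite case, with 105 and 234 against 18.1 and 24.8 in an intron (adjusted p = 0.0328) and the highest ratio (2.22). Stx6 had 173 and 89.3 against 5.17 and 6.18 at its start (4.24 ± 0.54 log2 units, adjusted p = 0.0107). A region 3.5 kb past its end had 271 and 289 against 22.4 and 41.7 (adjusted p = 0.0184). The midpoint of that region lies 1.52 kb from the start of BC034090, nearer than to any start of Stx6. The start of Stx6 is among the calls that held without each library.

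For the SNAP proteins, Snap23, the widely expressed relative of SNAP-25, had 140 and 98.3 against 0 and 0 at its start (adjusted p = 0.00231 by limma). Snap29, which acts in membrane traffic, had 287 and 177 against 37.9 and 47.5 (2.38 ± 0.48 log2 units, adjusted p = 0.0289). Its region lies 118 bp from the start of Pi4ka, nearer than to that of Snap29. The start of Snap91, which encodes the clathrin assembly protein AP180 and is no SNARE, had 234 and 179 against 13.8 and 19.4 (3.56 ± 0.44 log2 units, adjusted p = 0.0103). All 3 were higher in replicate 1, and their groups did not overlap, as in 96.5% of all regions.

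The regulators of SNARE assembly were represented by Stxbp, complexin and Unc13 genes. Stxbp3 (Munc18c) had 202 and 133 against 12.3 and 14.8 at its start (3.51 ± 0.45 log2 units, adjusted p = 0.0112). Stxbp4 had 166 and 123 against 15.6 and 17.9 (adjusted p = 0.0131), in a region 35 bp from the start of Cox11. In both replicate 1 was above replicate 2, and the groups did not overlap, as in 96.5% of all regions.

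Stxbp6 (amisyn), a SNARE-binding inhibitor of fusion, held the strongest region of the family, in an intron 217.8 kb from its start. It had 343 and 565 against 0 and 1.26 (adjusted p = 0.00386 by limma), while the start had 111 and 96.8 against 5.08 and 0 (adjusted p = 0.0292). Stxbp5 (tomosyn), another inhibitor, was the exception among all members. Its intronic region had 48.0 and 86.3 in Pou4f1 but 29.9 and 146 in IgG, so that the groups overlapped (-0.04 ± 1.02 log2 units, adjusted p = 0.969). At the Stxbp5 start the signal was 141 and 45.0 against 35.0 and 0 (adjusted p = 0.182), and at that of its relative Stxbp5l it was 199.5 and 143 against 15.7 and 0 (adjusted p = 0.0595).

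Complexins clamp and promote fusion. The start of Cplx1 had 106 and 56.1 against 0 and 0 (adjusted p = 0.00402 by limma), and a region 2.9 kb before it, at the start of the transcript Gm43364, had 119 and 114 against 5.40 and 0 (adjusted p = 0.0292). Cplx2 was higher in replicate 2, with 115 and 179 against 12.9 and 27.8 (2.86 ± 0.61 log2 units, adjusted p = 0.0325), and its region is the one with the RE1 element printed above, which 0.0872% of all regions held at the centre. The only Unc13 gene with a region was Unc13a, whose product primes vesicles, at an internal start 25.6 kb into the gene. It had 94.8 and 46.4 against 11.5 and 13.7 (2.31 ± 0.56 log2 units, adjusted p = 0.0395).

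The scaffolds of the active zone showed signal in different places. Rims3 had 2 intronic regions, with 522 and 478 against 0 and 0 (adjusted p = 0.00222 by limma) and 224 and 149.5 against 0 and 11.6 (adjusted p = 0.0465). The first had nearly equal replicates and stood at percentile 95.8 of the table. In Rims1 the region covered 776 bp of coding exon, far from any start, and had 319 and 116 against 0 and 0 (adjusted p = 0.00498). Unlike most member regions away from a start it was higher in replicate 1, with a ratio of 0.363.

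At the start of Pclo (Piccolo) the signal was 298 and 246 against 11.7 and 31.7 (3.74 ± 0.67 log2 units, adjusted p = 0.0226 by limma). The region counted for Bsn (Bassoon) had 127 and 98.0 against 0 and 8.62 (adjusted p = 0.0451), but it lies 1114 bp past the end of Bsn and 17 bp from the start of Apeh.

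Of the proteins on the vesicle, Syn3 had the strongest region outside Vamp4, at its start, with 452 and 582 against 8.15 and 28.2 (4.97 ± 0.77 log2 units, adjusted p = 0.0169 by limma). It was also the strongest member region at a start, and higher in replicate 2. The calls of Syn3, Pclo, Cplx2 and Rab3a, among others, were not among those that held without each library. Syn1, with the cAMP response element, had 122 and 52.1 against 13.0 and 0 and did not pass (adjusted p = 0.0798). Sv2c had a weak intronic region, with 64.2 and 61.9 against 3.31 and 7.73 (adjusted p = 0.0186), and a stronger one, with 266 and 257 against 0 and 0 (adjusted p = 0.00222). The replicates agreed closely in both, with a ratio of 0.964 and 0.966.

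Rab3a, the most abundant Rab of synaptic vesicles, had 136 and 65.7 against 24.2 and 13.7 at its start (2.31 ± 0.63 log2 units, adjusted p = 0.0492 by limma). A stronger region 1.8 kb past its end, with 308 and 172 against 46.9 and 26.7 (adjusted p = 0.0343), lies 69 bp from the start of Mpv17l2. Both had signal in each IgG library and were higher in replicate 1. The start of Rab3c had 167 and 72.85 against 0 and 0 (adjusted p = 0.00471).

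Some regions lie nearer to a gene that is no member. In 7 of the 53 regions the nearest annotated start was that of another gene within 1 kb: Apeh for Bsn, Gm43364 for Cplx1, Mpv17l2 for Rab3a, Lrrc10b for Syt7, Per1 for Vamp2, Pi4ka for Snap29 and Cox11 for Stxbp4. Which gene such a region acts on, if any, was not measured.

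Other genes of the pathway, taken from 4 lists of symbols, had a region in 54.5% to 73.7% of the genes of a list. This stands against 45.5% of the members and 34.9% of all protein-coding genes, without matching for gene length. Among 16 genes of the active zone and vesicle docking, 10 had a region. With limma 11 of their 15 regions were higher in Pou4f1, beside 64.8% of all regions. The strongest was that of Rimbp2, a RIM-binding protein, with 701 and 996 in Pou4f1 and 0 in both IgG libraries (adjusted p = 0.00222 by limma). Erc2, which encodes the active zone protein CAST, followed with 714 and 576 against 22.1 and 0 (adjusted p = 0.0448). Among 19 genes of the vesicle membrane and its filling, 14 had a region and 11 of 18 regions were higher, beside the same 64.8%. Slc18a2, the vesicular monoamine transporter VMAT2, had the highest signal, with 473 and 719 against 11.5 and 40.0 (adjusted p = 0.0210). Slc17a6, the vesicular glutamate transporter VGLUT2 of RGCs, had 3 regions, all of them higher, and the top one had 244 and 446 against 9.21 and 0 (adjusted p = 0.0317). Slc17a7 (VGLUT1) had 1, with 116 and 128 against 18.95 and 0 (adjusted p = 0.0795).

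Of 22 genes of endocytosis and vesicle recycling, 12 had a region and 12 of 16 regions were higher, beside 64.8% of all regions. Those with the highest signal were at Ap2a1, a subunit of the clathrin adaptor AP-2, with 561 and 383 against 13.4 and 22.1 (adjusted p = 0.00775 by limma), and at Sh3gl2 (endophilin A1), with 264 and 495 against 0 and 0 (adjusted p = 0.00229). Of 6 genes of adhesion across the synapse, 4 had a region, with 4 of 9 regions higher, beside the same 64.8%. Nlgn1, a neuroligin, had 423 and 731 against 0 and 0 (adjusted p = 0.00222), and the 3 neurexins had 7 regions together, 3 of them higher.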

How the data were processed

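CUT&Tag libraries were those of pooled E16.5 wild-type retinas. The authors trimmed and masked the reads, mapped them to mm10 with Bowtie2 2.4.5 and called peaks with SEACR. They deposited 1 table of 8038 regions with a signal value per region for 4 libraries. The sources used here do not give how this signal was averaged and scaled, or any pooling before peak calling. When multiplied by region length, 99.98% of values in each Pou4f1 library and 100% in the control libraries fell on whole steps of a size fixed for each library (tolerance 0.05 steps), from which reads cannot be counted, so the depth is unknown. No column of values was left unassigned (0).

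Pou4f1 (n = 2) was compared with IgG (n = 2) on log2(signal + 1) by limma 3.58.1 (R 4.3.3). No covariate or scaling was applied. The p-values were adjusted across all 8038 regions by the Benjamini-Hochberg method, and those under 0.05 were called. Where signal is low, a difference on this scale is smaller than the true fold. An exact permutation test has no power at this size (2 against 2) and was not used. The scripts were tested on simulated data. Genes were those of GENCODE M21, a start was counted within 1 kb of the midpoint, and positions count from 1. Python 3.11.15, pandas 2.3.3, pysam 0.24.0 and samtools 1.23.1 were used. The text names all regions of 20 core release genes, the strongest region of each family, genes with 3 or more regions, regions with the POU motif, and regions whose groups overlap, and gives the other members by symbol and values. Some members are counted but not reported here by name. The members, the lists and this rule were chosen with earlier results of these data known. Alternatives were the pseudocount, the scaling of IgG, a filter on low signal, the trend of limma, each library left out, the distance and symbols that define a member, and the definitions of a start and of the motif.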

Additional observations from a re-analysis of the deposited data

How the results depend on the processing

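The number of member regions higher in Pou4f1, 41 of 53, was 26 with a pseudocount of 0.1 (49.1%, beside 43.4% of all regions), 20 with IgG taken as 2 times shallower (37.7%, beside 36.7%) and 13 when column totals served as library sizes (24.5%, beside 22.7%), 17 to 52 when 1 library was left out, and 75 of the 105 regions within 50 kb. The count within 50 kb stands beside 64.8% of all regions. With a pseudocount of 10 the number was 50 (94.3%, beside 92.6%) and with the trend of limma 39 (73.6%, beside 66.4%). With the filter on low signal it was 41 (77.4%, beside 64.8%). The median log2 difference, 5.40, was 7.17 and 3.22 with pseudocounts of 0.1 and 10 and 2.94 with the column totals, where the median of all regions fell by 2.48, and 5.01 to 5.79 without 1 library. The share of genes with a region, 45.5%, was 71.4% within 50 kb and 19.5% with regions above the median signal, beside 53.1% and 17.5% of all genes. The share with the POU motif, 5.66%, was 28.3% in whole regions (21.7% of all), and for the octamer ATGCAAAT 0% at the centre (0.747% of all) and 11.3% in whole regions (3.64% of all). The share at a start lay between 56.6% and 69.8%.

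When column totals served as library sizes, 14 regions turned negative: Rab3a (-1.66 and -1.34), Snap29 (-1.63), Unc13a (-1.62), Stx8 (-1.15), Cplx2 (-1.11), Stxbp4 (-0.94), Stx6 downstream (-0.85), Syt9 (-0.67), Stxbp3 (-0.44), Snap91 (-0.40), Sv2c region 1 (-0.40), Syt16 (-0.34) and Pclo (-0.23). All 14 had signal in both IgG libraries, where this setting lowered the member values by 3.94 on average. The median shift over all such regions was -3.95. The totals were taken over the same regions that were chosen as Pou4f1 peaks, so this setting removes a shared excess. The changes of sign follow from that and are no finding about single genes. The Stxbp5 intronic region ranged from -1.17 to 1.08 when 1 library was left out. The 13 regions called under every setting were those at 0 in both IgG libraries, whose difference no scaling of IgG by a factor alone can move. No paired analysis was possible because the IgG columns carry no replicate number. With 2 libraries per group and an unknown depth, a region that did not pass is not shown to lack binding.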
